A study of Mus musculus with 12 samples.

Results

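The genes described here are 8 late-response activity genes, Inhba, Nrn1, Homer1, Sorcs3, Crem, Gadd45b, Gadd45g and Plk2, out of 50563 genes in a count table of mouse brain cortex. They were chosen by name, as rows whose Ensembl identifier maps to these symbols in the GRCm38 annotation. The rule used no values, but earlier results of these data were known when the genes were chosen. All 8 passed the filter on low counts that left 15688 genes for testing. RNA-Seq of poly(A)-selected RNA was made from 12 aged E4FAD mice with 1 library per mouse, so the spread within a group is the spread between mice. E4FAD mice carry human APOE4 in place of the mouse gene and the 5xFAD transgenes, which the Thy1 promoter drives in neurons. The labels give the genotype of every mouse in both groups as APOE4+/+, 5FAD-/+. The CTRL group held 7 mice that received vehicle with antioxidants by oral gavage, 2 of them 12 months old and 5 of them 14 months old. The DPAn-6 group held 5 mice that received the omega-6 fatty acid docosapentaenoic acid as its ethyl ester by daily gavage, 2 of them 12 months old and 3 of them 14 months old. Mice without the transgenes or with another APOE allele were not analysed here. Per the study's methods both groups held females and males, and sex is not given for each mouse in the labels. The comparison asks how the cortex of aged E4FAD mice differed in these genes after DPAn-6.

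Neuronal firing and calcium entry switch on genes in waves. The first wave, the immediate-early genes such as Fos and the Egr genes, codes mostly for transcription factors and needs no new protein. The later wave follows them and is rich in secreted factors, synaptic proteins and feedback regulators that adjust synapses over the next hours. Many genes of both waves are driven through CREB, which binds the cAMP response element (CRE) in promoters, and through AP-1, the Fos and Jun dimer. Among the 8 genes, Inhba and Nrn1 code for secreted or surface ligands, Homer1 and Sorcs3 for proteins of the postsynapse, Crem for a transcription factor of the CREB family, Gadd45b and Gadd45g for stress-response proteins tied to DNA demethylation, and Plk2 for a kinase of homeostatic synaptic scaling.

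Promoter windows show where such elements sit in these genes. RefSeq windows of the GRCm38.p6 build were searched for 6 of the 8 genes (Inhba, Homer1, Sorcs3, Gadd45b, Gadd45g and Plk2). The search covered the 250 bases before each start, on both strands. Nrn1 had no window, and Crem was left out of the search by choice, so neither enters the counts below. The full CRE, TGACGTCA, was found in 1 of the 6, Plk2, where it began 62 bases before the start, and 1.5% of the 32851 windows of all genes held it. The CRE half-site, TGACG, which also lies inside the full CRE, was found in Plk2 and in the first of the Homer1 windows, and 17.8% of all windows held it. In Homer1 it began 56, 40 and 14 bases before the start. The AP-1 site TGANTCA was found in none of the 6 and in 6.7% of all windows. The windows of Plk2 and Homer1 are shown because they hold the element, and those of Sorcs3 and Inhba because these genes had the lowest p-value and the largest fold change of the 8. All 4 are on the plus strand, written 5′ to 3′, with the motifs in capitals.
Plk2, chr13:110394794-110395043: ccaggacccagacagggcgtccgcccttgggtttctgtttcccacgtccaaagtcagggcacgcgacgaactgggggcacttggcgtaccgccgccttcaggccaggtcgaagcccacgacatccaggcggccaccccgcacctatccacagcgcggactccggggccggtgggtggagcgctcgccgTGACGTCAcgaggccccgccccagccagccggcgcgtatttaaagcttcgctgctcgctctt
Homer1, chr13:93303507-93303756: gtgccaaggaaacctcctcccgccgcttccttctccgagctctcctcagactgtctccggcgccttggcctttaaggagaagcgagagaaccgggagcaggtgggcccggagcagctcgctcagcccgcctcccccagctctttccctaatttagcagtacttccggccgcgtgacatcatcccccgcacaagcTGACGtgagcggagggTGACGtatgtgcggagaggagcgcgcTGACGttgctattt
Sorcs3, chr19:48205775-48206024: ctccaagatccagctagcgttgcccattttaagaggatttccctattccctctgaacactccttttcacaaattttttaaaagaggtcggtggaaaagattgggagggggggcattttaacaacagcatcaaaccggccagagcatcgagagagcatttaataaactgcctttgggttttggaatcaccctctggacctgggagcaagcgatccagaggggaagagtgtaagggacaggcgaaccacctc
Inhba, chr13:16011601-16011850: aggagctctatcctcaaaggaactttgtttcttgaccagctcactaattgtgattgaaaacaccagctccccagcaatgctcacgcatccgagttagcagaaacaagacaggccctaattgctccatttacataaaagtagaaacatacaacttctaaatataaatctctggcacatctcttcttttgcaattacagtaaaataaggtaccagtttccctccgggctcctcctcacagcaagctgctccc
A match of letters is a description of the window, not a measured binding site. No motif searched was found in the windows of Sorcs3, Inhba, Gadd45b and Gadd45g.

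All 8 genes had a higher fitted level in the DPAn-6 mice. The differences passed the test for Inhba (1.62-fold), Nrn1 (1.34-fold) and Sorcs3 (1.32-fold), and the fold changes of the other 5 genes were between 1.07 and 1.22. The test was edgeR's quasi-likelihood test of DPAn-6 against CTRL with Benjamini-Hochberg adjustment over the 15688 genes, and a gene was called at an adjusted p below 0.05. By this rule 3 of the 8 genes were called higher and none lower, with none lower at an unadjusted p below 0.05 either, where 0.408% of all genes tested were called higher, 1.14% lower and 1.55% in either direction. None of the 8 was called by edgeR with the choroid plexus gene Ttr as covariate or in the 14-month mice alone, with 3 of them at an unadjusted p below 0.05 in each case. Ttr itself was lower in the DPAn-6 mice, so this covariate and the treatment cannot be fully told apart. At an unadjusted p below 0.05 in all mice without a covariate, 5 of the 8 were higher, against 5.51% of all genes higher, 9.02% lower and 14.5% in either direction. Every DPAn-6 library lay above every CTRL library for 2 of the 8 genes, Nrn1 and Sorcs3, compared with 1.31% of all genes. For 7 of the 8, all but Plk2, each of the 5 DPAn-6 libraries lay above the CTRL mean, compared with 19.6% of all genes. The median log2 fold change of the 8 was 0.29, and that of all genes tested was -0.0047, with 48.7% of them higher. Because the 8 were chosen with earlier results of these data known, these counts and shares are a description. In RNA of whole cortex, more cells of a type and more RNA per cell cannot be told apart.

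**Figure D1:**
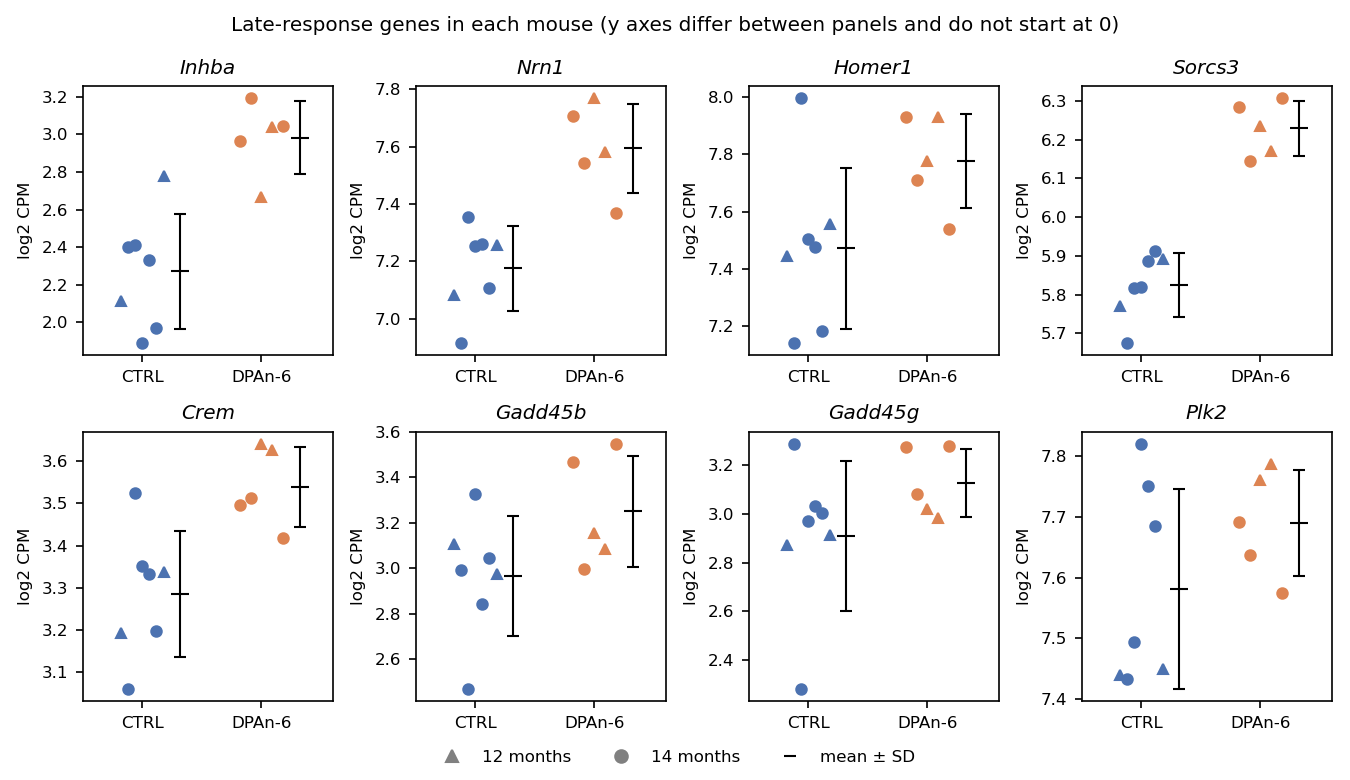
Log2 CPM (y axis, scaled separately in each panel and not starting at 0) of the 8 genes in each of the 7 CTRL and 5 DPAn-6 mice, with triangles for mice of 12 months and circles for mice of 14 months. The bars give mean ± SD. The groups are apart for Nrn1 and Sorcs3, where the lowest DPAn-6 mice sit at 7.37 and 6.14 and the highest CTRL mice at 7.35 and 5.91.

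The ligands come first. Inhba codes for the beta A subunit of inhibin and activin A, a secreted factor of the TGF-beta family that neurons release after activity. It lies on chromosome 13 (ENSMUSG00000041324, 16011851 to 16031621, plus strand). In log2 CPM, the log2 of library-scaled counts (CPM, on totals adjusted by TMM factors) with 0.5 added to each count, Inhba was 1.89 in the lowest CTRL mouse, 2.33 at the median and 2.78 in the highest. The 5 DPAn-6 mice had 2.96, 3.19, 2.67, 3.04 and 3.05 log2 CPM. Thus 4 of the 5 DPAn-6 mice lay above every CTRL mouse, and the DPAn-6 mouse at 2.67 fell below CTRL replicate 7, a 12-month-old mouse that stood above the other 6 CTRL mice. The CTRL mean was 2.27 ± 0.30 (SD, n = 7), against 2.98 ± 0.19 (SD, n = 5) after DPAn-6. edgeR gave a log2 fold change of 0.70 with a standard error of 0.15 (adjusted p = 0.0299), and the exact permutation test of the means, two-sided and over every split of the mice, gave p = 0.00505. Inhba had the fewest reads of the 8 genes, 64 to 222 per library, so counting error alone was 6.71% to 12.5% of a value.

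Nrn1 codes for neuritin, a GPI-anchored protein also called CPG15, which promotes the growth of neurites and the stability of synapses. It lies on chromosome 13 (ENSMUSG00000039114, 36725361 to 36735131, minus strand). Nrn1 had 6.92 log2 CPM in the lowest CTRL mouse, 7.25 at the median and 7.35 in the highest. The DPAn-6 mice had 7.71, 7.54, 7.77, 7.58 and 7.37 log2 CPM, so the groups did not overlap, by a margin of little more than rounding between the DPAn-6 mouse at 7.37 and the CTRL mouse at 7.35. The means were 7.18 ± 0.15 (SD, n = 7) and 7.59 ± 0.16 (SD, n = 5). The log2 fold change was 0.42 with a standard error of 0.085 (edgeR, adjusted p = 0.0260), and the exact permutation p was 0.00126, the smallest that groups of these sizes allow. Exons of Nrn1 share 501 bases with Fars2 on the other strand, and the sources used here do not say which strand was counted. Fars2 had 137 to 370 reads per library where Nrn1 had 1860 to 4448.

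The calls of Inhba and Nrn1 changed with the mouse left out, and their directions did not. Inhba lost its call when any one of 8 mice was left out, namely replicates 1, 4, 5 and 6 of CTRL and 1, 2, 4 and 5 of DPAn-6. Its adjusted p was then between 0.0529 and 0.0815 (edgeR), and its log2 fold change stayed between 0.64 and 0.80 with any one mouse left out. Nrn1 lost its call when any one of 6 mice was left out, CTRL replicates 1 and 6 and DPAn-6 replicates 1 to 4. Its adjusted p was then between 0.0532 and 0.106 (edgeR), and its log2 fold change stayed between 0.38 and 0.48 with any one mouse left out. The unadjusted p of either gene was at most 0.00116 with any one mouse left out (edgeR). In the fits where a call was lost, fewer of all genes were called too, between 64 and 164 in place of 243.

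Of the postsynaptic genes, Sorcs3 had the lowest p-value of the 8. It codes for a sorting receptor with a Vps10p domain, found at postsynaptic sites and known for a role in long-term depression, and lies on chromosome 19 (ENSMUSG00000063434, 48206025 to 48805505, plus strand). Sorcs3 had 5.68 log2 CPM in the lowest CTRL mouse, 5.82 at the median and 5.91 in the highest. The DPAn-6 mice had 6.28, 6.14, 6.24, 6.17 and 6.31 log2 CPM. The groups did not overlap, and the gap between the highest CTRL and the lowest DPAn-6 mouse was wider than the whole range of the DPAn-6 mice. The means were 5.83 ± 0.083 (SD, n = 7) and 6.23 ± 0.070 (SD, n = 5), the smallest SDs of the 8 genes. The log2 fold change was 0.40 with a standard error of 0.061 (edgeR, adjusted p = 0.00551), and the exact permutation p was again the smallest possible, 0.00126. Sorcs3 was called with each of the 12 mice left out in turn, with adjusted p from 0.000732 to 0.0243 (edgeR), and it was not called with Ttr, a choroid plexus gene, as covariate (adjusted p = 0.148) or in the 14-month mice alone (adjusted p = 0.225).

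Homer1 codes for a scaffold that links metabotropic glutamate receptors to internal calcium stores through the long Homer proteins. Activity induces the short form Homer1a, which lacks the coiled coil and breaks these links. The count covers the whole gene (chromosome 13, ENSMUSG00000007617, 93299635 to 93405129, plus strand), so short and long transcripts were not told apart. Homer1 had 7.14 log2 CPM in the lowest CTRL mouse, 7.48 at the median and 7.99 in the highest. The DPAn-6 mice had 7.93, 7.71, 7.78, 7.93 and 7.54 log2 CPM. The groups overlapped: CTRL replicate 3, at 7.99, stood above all 5 DPAn-6 mice, while 5 of the 7 CTRL mice lay below the lowest DPAn-6 mouse. The means were 7.47 ± 0.28 (SD, n = 7) and 7.78 ± 0.16 (SD, n = 5), with a log2 fold change of 0.29 and a standard error of 0.13 (edgeR, adjusted p = 0.305). The exact permutation p was 0.0593, and 0.0366 on library totals without TMM factors. Without CTRL replicate 3, Homer1 had a log2 fold change of 0.39 and an adjusted p of 0.0142 (edgeR).

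Crem, the cAMP responsive element modulator, binds the same element as CREB, and its short inducible product ICER represses CREB targets in a negative feedback loop. It lies on chromosome 18 (ENSMUSG00000063889, 3266048 to 3337748, minus strand), and the count pools ICER with the longer forms. Crem had 3.06 log2 CPM in the lowest CTRL mouse, 3.33 at the median and 3.53 in the highest. The DPAn-6 mice had 3.50, 3.51, 3.64, 3.63 and 3.42 log2 CPM. The highest CTRL mouse was again replicate 3, which lay above 3 of the 5 DPAn-6 mice, and the other 6 CTRL mice lay below all of them. The means were 3.28 ± 0.15 (SD, n = 7) and 3.54 ± 0.094 (SD, n = 5), with a log2 fold change of 0.25 and a standard error of 0.092 (edgeR, adjusted p = 0.212). The exact permutation p was 0.0114. Without CTRL replicate 3 the log2 fold change was 0.29 and the adjusted p was 0.0485 (edgeR). Exons of Crem share 472 bases with Gm6225 on the other strand, which had 4 to 14 reads per library where Crem had 128 to 287.

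The Gadd45 proteins are small stress sensors that bind kinases and take part in the active removal of DNA methylation, and Gadd45b is known for this role at growth factor promoters in active neurons. Gadd45b (chromosome 10, ENSMUSG00000015312, 80930073 to 80932204, plus strand) had 2.47 log2 CPM in the lowest CTRL mouse, 2.99 at the median and 3.33 in the highest. The DPAn-6 mice had 3.47, 2.995, 3.16, 3.09 and 3.55 log2 CPM. Only DPAn-6 replicates 1 and 5 stood above all CTRL mice, and the lowest CTRL value was that of replicate 3. The means were 2.96 ± 0.26 (SD, n = 7) and 3.25 ± 0.24 (SD, n = 5), with a log2 fold change of 0.29 and a standard error of 0.14 (edgeR, adjusted p = 0.367), and the exact permutation p was 0.0909.

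Gadd45g (chromosome 13, ENSMUSG00000021453, 51846678 to 51848468, plus strand) had 2.28 log2 CPM in the lowest CTRL mouse, 2.97 at the median and 3.29 in the highest. The DPAn-6 mice had 3.28, 3.08, 3.02, 2.98 and 3.28 log2 CPM, all between the lowest and the highest CTRL mouse. CTRL replicate 3 was again the lowest, and the next CTRL mouse was at 2.87. The means were 2.91 ± 0.31 (SD, n = 7) and 3.13 ± 0.14 (SD, n = 5), with a log2 fold change of 0.20 and a standard error of 0.14 (edgeR, adjusted p = 0.556), and the exact permutation p was 0.152. Gadd45g had 71 to 261 reads per library and Gadd45b 81 to 314, with counting errors of 6.19% to 11.9% and 5.64% to 11.1%.

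Plk2, a Polo-like kinase also called SNK, is induced by prolonged firing and weakens synapses by marking a postsynaptic protein for breakdown. It lies on chromosome 13 (ENSMUSG00000021701, 110395046 to 110400844, plus strand). Plk2 had 7.43 log2 CPM in the lowest CTRL mouse, 7.49 at the median and 7.82 in the highest, and the DPAn-6 mice had 7.69, 7.64, 7.76, 7.79 and 7.57 log2 CPM. The CTRL mice fell into a lower set of 4 and an upper set of 3, and the DPAn-6 mice lay within the upper set or between the sets. The means were 7.58 ± 0.17 (SD, n = 7) and 7.69 ± 0.088 (SD, n = 5), with a log2 fold change of 0.10 and a standard error of 0.082 (edgeR, adjusted p = 0.635), and the exact permutation p was 0.201. Plk2 had 2654 to 5128 reads per library and counting errors of at most 1.94%, so counting error was small beside the spread between mice.

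Levels of the 8 genes can be set against each other only per length. The length used was that of all annotated exons of a gene together, so short and long transcripts of a gene share 1 length. The order below depends on that choice. On the RPKM scale, which divides CPM by the exon length in kilobases, computed here, Nrn1 stood highest, with 64.6 ± 6.44 (SD, n = 7) in CTRL mice and 86.3 ± 9.13 (SD, n = 5) in those given DPAn-6. Plk2 followed with 42.9 ± 5.01 and 46.1 ± 2.79, Homer1 with 15.1 ± 3.13 and 18.4 ± 2.04, and Sorcs3 with 7.96 ± 0.45 and 10.5 ± 0.51. The Gadd45g level was 6.52 ± 1.25 RPKM in CTRL and 7.48 ± 0.74 in DPAn-6, and that of Gadd45b was 4.98 ± 0.86 and 6.06 ± 1.04. Crem had 1.66 ± 0.17 and 1.98 ± 0.13 RPKM, and Inhba had the lowest levels, 0.77 ± 0.17 and 1.25 ± 0.16. Over all 12 mice, the ranges of neighbours in this order overlapped for Sorcs3 and Gadd45g, for Gadd45g and Gadd45b, and for Crem and Inhba, and they were apart for Nrn1 and Plk2, Plk2 and Homer1, Homer1 and Sorcs3, and Gadd45b and Crem. Thus the gene with the largest fold change, Inhba, was the least abundant, and the most abundant, Nrn1, was also called.

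Mouse by mouse, the mean distance of the 8 genes from their CTRL means was between 0.29 and 0.42 log2 in the 5 DPAn-6 mice and between -0.072 and 0.083 in the 7 CTRL mice. In 4 of the DPAn-6 mice all 8 genes lay above their CTRL means, and in DPAn-6 replicate 5 the exception was Plk2. That replicate had the lowest DPAn-6 value for Nrn1, Homer1, Crem and Plk2 and the highest for Sorcs3, Gadd45b and Gadd45g, so no single DPAn-6 mouse was at the top throughout. It was also the deepest library, with 26520251 counts. The mean over the genes is given as a description, without a test.

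CTRL replicate 3 stood apart from the other libraries in a way that touched several of the 8 genes. It was the highest CTRL mouse for Nrn1, Homer1 and Crem and the lowest for Gadd45b and Gadd45g. Over all genes, its log2 counts fell by 0.50 for each 10 points of GC content of the transcript, relative to the mean of all libraries, while the slopes of the other 11 libraries lay between -0.13 and 0.20. Transcript GC content was 36.9% for Homer1, 41.4% for Inhba, 43.2% for Crem, 45.7% for Nrn1, 48.0% for Plk2, 50.1% for Sorcs3, 56.9% for Gadd45b and 59.9% for Gadd45g. Its total of 15339098 counts was the lowest of the CTRL group. With the trend of each library on transcript length and GC removed, an alternative chosen after the data were seen, Homer1 had a log2 fold change of 0.41 and joined Inhba, Nrn1 and Sorcs3 among the genes called (edgeR, adjusted p = 0.0409), and 540 of all genes tested were called.

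Whether the 8 genes rose and fell together from mouse to mouse was asked after the mean of each group had been removed, with Pearson's r and Spearman's rho over the 12 mice and two-sided exact permutation tests within the groups, adjusted over the 28 pairs. Of these pairs, 16 had a positive r, and the median r was 0.049. Nrn1, Homer1 and Crem varied together. Nrn1 and Crem had r = 0.86 (exact permutation, adjusted p = 0.0137) and rho = 0.83 (adjusted p = 0.0589), and r was 0.96 without the 2 mice farthest from the median of Nrn1. Homer1 and Crem had r = 0.87 (exact permutation, adjusted p = 0.0215) and rho = 0.77 (adjusted p = 0.0589), with r = 0.66 when the 2 mice farthest from the median of Homer1 were left out. Nrn1 and Homer1 had r = 0.77 (exact permutation, adjusted p = 0.0324) and rho = 0.77 (adjusted p = 0.0589), with r = 0.85 without 2 mice. These are 3 genes of low to middle GC content, and the remaining pairs that passed went the other way.

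Gadd45g ran against Crem and Homer1. Crem and Gadd45g had r = -0.84 (exact permutation, adjusted p = 0.0324) and rho = -0.79 (adjusted p = 0.0589), with r = -0.77 without 2 mice. Homer1 and Gadd45g had r = -0.83 (exact permutation, adjusted p = 0.0435) and rho = -0.56 (adjusted p = 0.315), and r was -0.35 when CTRL replicates 2 and 3 were left out, so this pair rested on those mice. By rho, none of the 28 pairs passed the adjustment. With the trend on length and GC content removed, the r of Nrn1 and Crem was 0.76, that of Homer1 and Crem 0.63, that of Nrn1 and Homer1 0.37 and that of Crem and Gadd45g -0.31, and 0 of the 28 pairs had an adjusted p below 0.05 in place of 5. Without CTRL replicate 3 only Nrn1 and Crem passed (r = 0.86, exact permutation, adjusted p = 0.0337). There r was 0.77 for Nrn1 and Homer1, 0.77 for Homer1 and Crem, -0.74 for Crem and Gadd45g and -0.57 for Homer1 and Gadd45g. In the 14-month mice alone 0 pairs passed. Their r was 0.87 for Nrn1 and Crem, 0.92 for Homer1 and Crem and 0.87 for Nrn1 and Homer1. It was -0.88 for Crem and Gadd45g and -0.84 for Homer1 and Gadd45g. These 2 settings hold fewer mice, so a lost pass is not a lost r. Inhba and Sorcs3, both called between the groups, had r = -0.090 with each other and passed with none of the other genes.

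**Figure D2:**
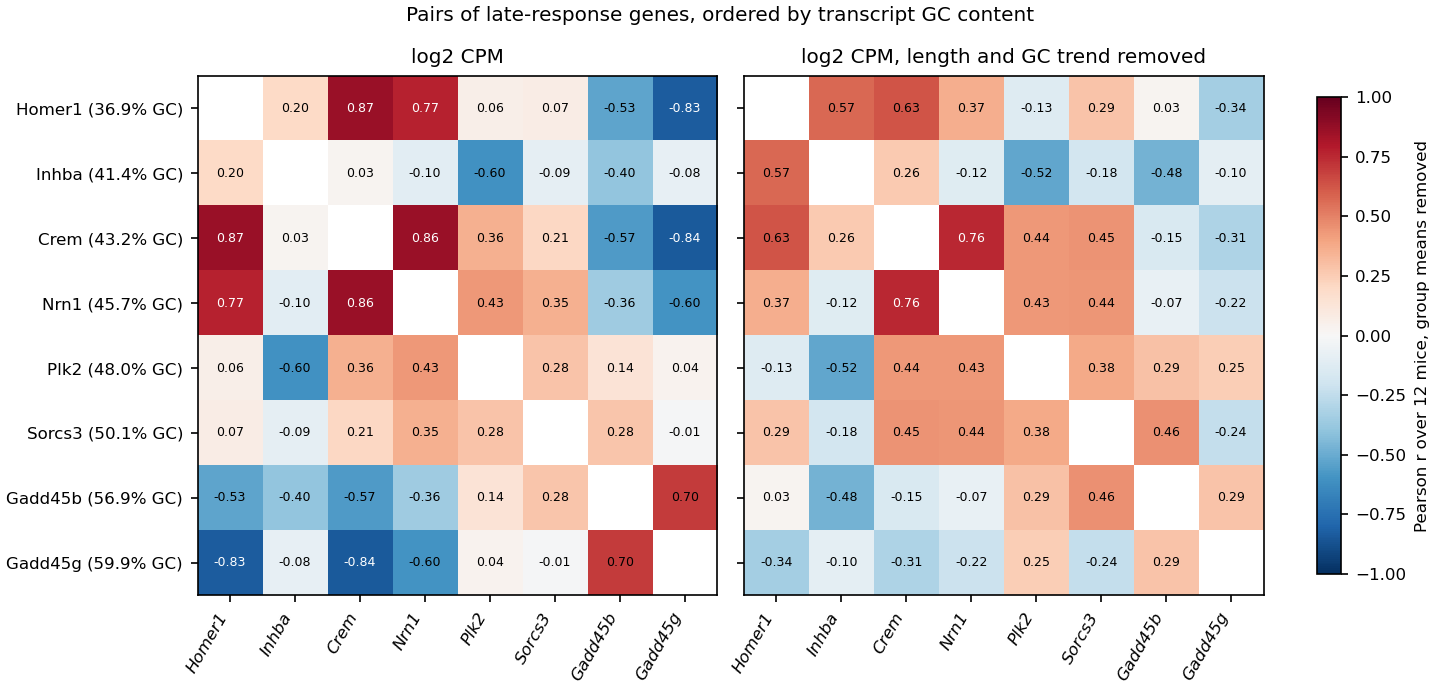
Pearson r of each pair of the 8 genes over the 12 mice after the group means were removed, as color and number, with the genes ordered by transcript GC content from 36.9% (Homer1) to 59.9% (Gadd45g). The left panel uses log2 CPM and the right panel the same values with the length and GC trend of each library removed, where Homer1 and Gadd45g go from -0.83 to -0.34.

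The genes most like the mean of the 8 over the 12 mice were found by the r of each other gene to that mean, after centring in each group and scaling. The 8 shared no common pattern (median r of their pairs 0.049), so a match to the mean is not a match to each gene. The 5 genes below are the highest of all other genes tested, and how high such r runs by chance was not tested. They were Enc1 (r = 0.88), Zfp64 (r = 0.87), B3galnt1 (r = 0.86), Gm16596 (r = 0.86) and Gm28928 (r = 0.85). Their log2 fold changes between the groups were 0.17 for Enc1, -0.074 for Zfp64, 0.22 for B3galnt1, 0.63 for Gm16596 and -0.10 for Gm28928, and none was called (edgeR, lowest adjusted p = 0.135, for Enc1).

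Age did not change the direction for any of the called genes. Inhba differed between the groups by 0.41 log2 CPM in the 12-month mice and by 0.87 in the 14-month mice, Nrn1 by 0.50 and 0.36, and Sorcs3 by 0.37 and 0.42. The differences of Homer1 were 0.35 at 12 months and 0.27 at 14 months, and those of Crem 0.37 and 0.18. Gadd45b differed by 0.080 and 0.40, and Gadd45g by 0.11 and 0.30. For Plk2 the difference was 0.33 in the younger and -0.0021 in the older mice. The test of the difference between ages, the interaction of age and treatment in edgeR, called none of the 8 (smallest unadjusted p = 0.0565 and adjusted p = 0.905, for Plk2), and 1 of all 15688 genes, with 669 below an unadjusted p of 0.05. The 12-month arm held 2 mice against 2. In the 14-month mice alone, 0 of the 8 genes and 9 of all genes were called, and Sorcs3 had a log2 fold change of 0.43 (edgeR, adjusted p = 0.225).

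Other late-response genes moved the same way as the 8 where they passed the test. In a list of 20 such genes, 6 were called higher and none lower, where 0.408% of all genes tested were called higher and 1.14% lower. At an unadjusted p below 0.05, 10 were higher, against 5.51% of all genes, and the median log2 fold change was 0.19. The neuropeptide PACAP gene Adcyap1 rose by 0.77 log2 (SE 0.10, adjusted p = 0.00302), and the synaptic pentraxin gene Nptx2 rose by 0.67 (SE 0.12, adjusted p = 0.0134). The neurotrophin gene Bdnf rose by 0.56 (SE 0.12, adjusted p = 0.0276), and Scg2, the precursor of secretoneurin, by 0.47 (SE 0.092, adjusted p = 0.0215). Vgf, another secreted neuropeptide precursor, rose by 0.45 (SE 0.10, adjusted p = 0.0412), and Rgs4, a brake on G-protein signaling, by 0.32 (SE 0.072, adjusted p = 0.0387). All these values are log2 fold changes from edgeR. All 20 genes of the list were measured in the same mice as the 8 genes. The list was also chosen with earlier results of these data known. It is therefore no independent evidence of the direction of the 8. Adcyap1, Nptx2 and Vgf were put forward by the study on these same samples, so they are no independent evidence of the list's direction either.

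Of 23 immediate-early genes tested, 1 was called higher and none lower, against 0.408% and 1.14% of all genes tested. At an unadjusted p below 0.05, 7 were higher and 1 was lower, against 5.51% and 9.02% of all genes. The median log2 fold change was 0.15. Fosl2, an AP-1 subunit, rose by 0.44 (SE 0.10, edgeR, adjusted p = 0.0464). Egr3, a zinc finger factor, had a log2 fold change of 0.40 (SE 0.11, edgeR, adjusted p = 0.0954). The other genes at an unadjusted p below 0.05 were Egr4 (0.51), Fosb (0.44), Egr1 (0.39), Nr4a3 (0.38), Ier5 (0.38) and the lower Btg2 (-0.49). None of these was called. Fos, Arc and Npas4, markers of recent firing named here after their values were seen, had log2 fold changes of 0.39, 0.11 and 0.15. Their adjusted p were 0.431, 0.876 and 0.813 (edgeR). The summed level of the 23 genes ran from 1268 to 1857 CPM in CTRL and from 1725 to 2022 CPM in DPAn-6. Whether the late list and the early list differ in their share of calls was not tested.

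**Figure D3:**
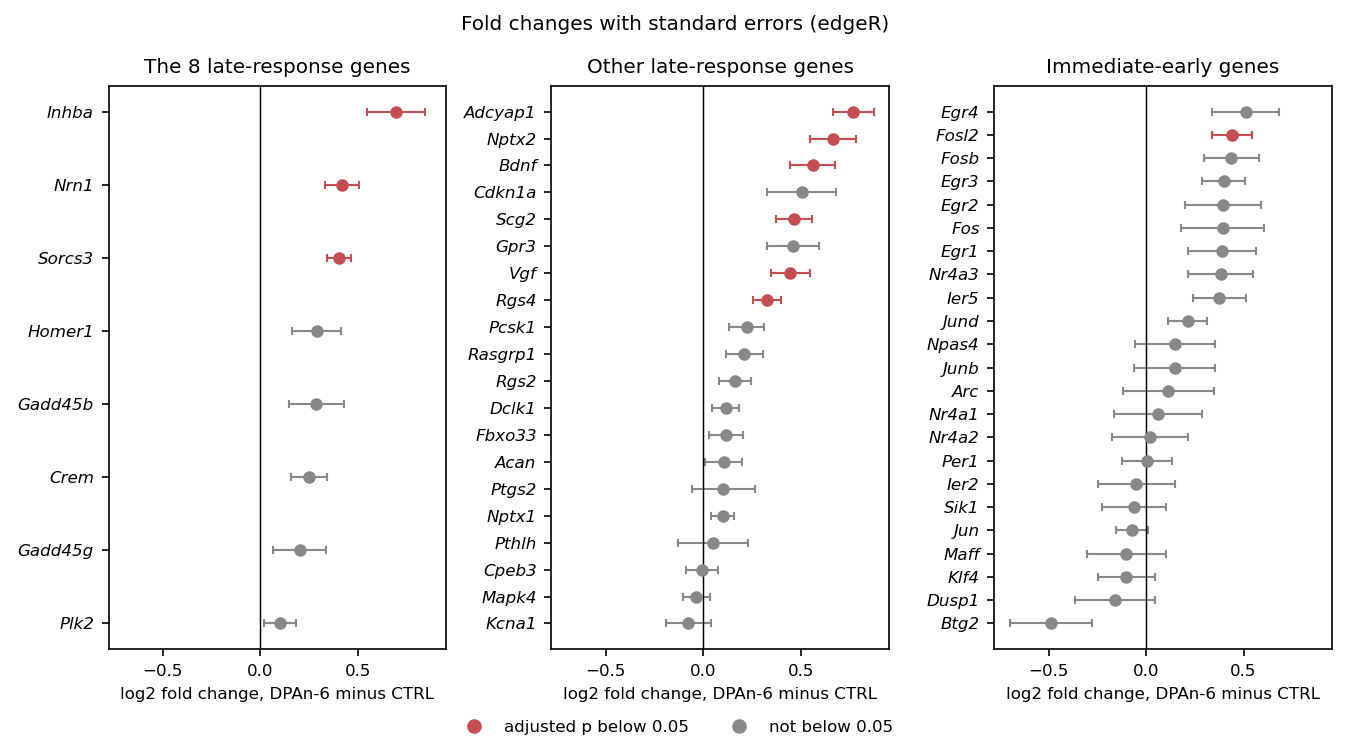
Log2 fold change of DPAn-6 against CTRL (x axis) with its standard error from edgeR for the 8 genes, the 20 other late-response genes and the 23 immediate-early genes, red where the adjusted p was below 0.05. The called genes, 3 of 8, 6 of 20 and 1 of 23, all lie to the right of 0.

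In the list of 13 activin and TGF-beta pathway genes around Inhba, none was called higher and 1 lower, against 0.408% and 1.14% of all genes tested. The gene called lower was Acvr2b, a type II receptor that binds activin, with a log2 fold change of -0.55 (SE 0.13, edgeR, adjusted p = 0.0490). The coreceptor Tgfbr3 had -0.42 (adjusted p = 0.0784). Of 9 Homer partners none was called and 8 had a negative fold change, among them Homer2 with -0.37 and the calcium channel of internal stores Itpr1 with -0.11. Of 14 genes of the CREB and cAMP arm around Crem none was called, and the smallest p-values were those of the adenylyl cyclase Adcy1 (log2 fold change -0.32) and the acetyltransferase Ep300 (-0.21). Neither the 10 Gadd45 and Polo-like partners nor the 5 tested Vps10p-domain receptors and their partners held a called gene. In these lists Plk3, a Polo-like kinase, had 0.27 (edgeR, adjusted p = 0.0982), Map3k4, a kinase that Gadd45 proteins bind, had -0.14, Pick1 had 0.11 and Sorcs1, a close relative of Sorcs3, had -0.047. The Nrn1 paralog Nrn1l was in the table and did not pass the filter. At an unadjusted p below 0.05, 1 activin pathway gene and 1 of the Gadd45 and Polo-like partners were higher. At the same threshold, 3 activin pathway genes, 1 Homer partner and 2 genes of the CREB and cAMP arm were lower. Of all genes tested, 5.51% were higher and 9.02% lower at that threshold. The medians of the 5 lists were between -0.10 and 0.023.

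Markers of other cells moved with the groups too. All 12 microglial markers had negative fold changes (median log2 fold change -0.49), 5 of them were called lower, and their summed level was 1652 to 2779 CPM in CTRL and 1454 to 2019 CPM in DPAn-6. Of 8 meningeal fibroblast markers, 4 were called lower (median -0.68, 57.0 to 79.3 CPM against 32.4 to 61.9 CPM). Over all genes tested, 1.14% were called lower. Choroid plexus markers had no call among the 7 of 10 tested (median -2.41), and 6 of the 7 were lower at an unadjusted p below 0.05. Their sum was 275 to 2567 CPM in CTRL and 299 to 312 CPM in DPAn-6. In DPAn-6 the sum mainly reflects Enpp2, at 8.15 to 8.23 log2 CPM there and 7.96 to 9.72 in CTRL. The transthyretin gene Ttr, which defines this tissue, ran from 2.59 to 10.6 log2 CPM in CTRL and from 0.85 to 3.86 in DPAn-6. Its means differed between the groups (exact permutation p = 0.0189). With Ttr as a covariate none of the 8 genes was called, at log2 fold changes of 0.69 for Inhba, 0.36 for Nrn1 and 0.37 for Sorcs3 and adjusted p of 0.361, 0.429 and 0.148 (edgeR), and 17 of all genes were. Their standard errors were 0.21, 0.12 and 0.083, in place of 0.15, 0.085 and 0.061 without the covariate. No gene was called among the 10 inhibitory neuron markers, of which 9 had positive fold changes (median 0.16, 701 to 809 CPM in CTRL and 813 to 954 CPM in DPAn-6, without overlap), nor among those of oligodendrocytes (median 0.27), striatal neurons (0.34), pan-neuronal genes (0.092), excitatory neurons (0.025), olfactory and amygdala neurons (-0.020), hippocampal neurons (-0.059), astrocytes (-0.15) or endothelial and mural cells (-0.18). At an unadjusted p below 0.05, 6 of the 10 oligodendrocyte markers were higher and 0 lower, against 5.51% of all genes higher. All 10 striatal neuron markers had positive fold changes, 1 of them at that threshold. Of the 10 astrocyte and the 10 endothelial and mural markers, 3 each were lower at it, against 9.02% of all genes. Excitatory neuron markers of the cortex were present in every mouse, at 9009 to 11569 CPM in CTRL and 9242 to 9619 CPM in DPAn-6. No listed marker was at 0 in all libraries. The part of these cell markers in the values of the 8 genes was not tested beyond the Ttr covariate.

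In 27 alternative fits, which changed the test, the normalization, the filter, the covariates or the mice, all 8 genes kept a positive log2 fold change. Sorcs3 was called in 24 of them, Nrn1 in 17, Inhba in 16, Homer1 in 4 and Crem in 2, and Gadd45b, Gadd45g and Plk2 in none. The log2 fold change of Sorcs3 was between 0.37 and 0.46, that of Inhba between 0.64 and 0.87 and that of Nrn1 between 0.36 and 0.50. Those of Homer1 and Crem were between 0.24 and 0.45 and between 0.19 and 0.32. Relative to the reported fold changes the ranges were wider for Gadd45b (0.14 to 0.41), Gadd45g (0.078 to 0.31) and Plk2 (0.0011 to 0.14).

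**Figure D4:**
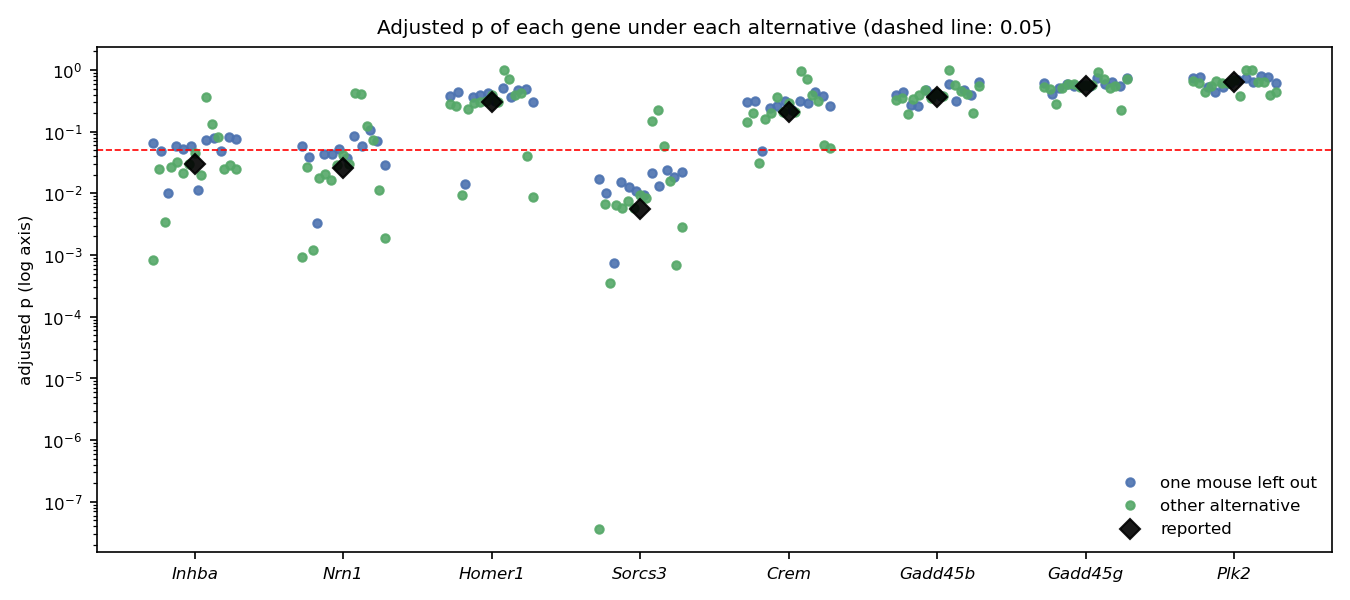
Adjusted p (y axis, log scale) of each of the 8 genes in the fit reported here (diamond), with 1 mouse left out (blue) and under the other alternatives (green), with the dashed line at 0.05. Sorcs3 sits below the line in 24 of 27 alternatives, Inhba and Nrn1 straddle it, and Gadd45b, Gadd45g and Plk2 stay above it.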

How the data were processed

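RNA-Seq was made from the cortex of 7 CTRL and 5 DPAn-6 E4FAD mice. Per the labels and the study's methods, the authors made poly(A)-selected KAPA mRNA libraries, aligned reads with STAR 2.5.3a to GRCm38 (mm10) and counted reads per Ensembl gene, and they deposited 1 table of raw counts without normalization. Total counts were 15339098 to 19500154 in CTRL and 15208803 to 26520251 in DPAn-6. Which strand was counted is not given in the sources used here. Symbols, positions and lengths came from the GENCODE M21 annotation, which matched 50339 of the 50563 genes, and promoter windows from RefSeq (GRCm38.p6).

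The main test was edgeR (4.0.16, under R 4.3.3), with glmQLFit and glmQLFTest after TMM scaling and a filterByExpr filter by group, over all 12 libraries with no covariate and Benjamini-Hochberg adjustment. Alternatives used DESeq2 1.42.0, limma 3.58.1 (voom, the test the study names), other scalings and filters, covariates, subsets of mice and each mouse left out. Exact permutation tests on log2 CPM (pseudocount 0.5) ran in Python 3.11.15 with pandas 2.3.3, numpy 2.4.6 and scipy 1.17.1. The edgeR script was tested on simulated data.

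The 8 genes, the 7 other pathway lists, the 12 marker lists and the tests were chosen with earlier results of these data known. Besides the 8, the genes named are, from each pathway list, up to 6 with an adjusted p below 0.05, or the 2 with the smallest p where fewer than 2 passed, and the 5 genes most alike in pattern. Fos, Arc, Npas4 and the further immediate-early genes at an unadjusted p below 0.05 were named outside this rule, after their values were seen. The removal of length and GC trends, the 2 fits with particular libraries left out and the fit of replicate numbers 1 to 5 without a block were added after the data were seen.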

Additional observations from a re-analysis of the deposited data

Results flagged for a closer look

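Among the 16 sets of values examined for a lone sample (8 genes in each of the 2 groups), 1 stood out. Gadd45g in CTRL replicate 3 was 2.28 log2 CPM, and the nearest of the other 6 CTRL mice was 2.87, a gap of 0.587 of the whole range of the group. Chance gives such a gap in about 1 in 20 groups. The same library had the steepest slope on GC content (-0.50 log2 per 10 points), and Gadd45g had the highest GC content of the 8 genes (59.9%). The part of that slope in this value was not tested. Without CTRL replicate 3 the log2 fold change of Gadd45g was 0.12 (edgeR, adjusted p = 0.503), in place of 0.20.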

How the results depend on the processing

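Of the 8 genes, 3 were called in the fit reported here. That count was 5 by limma-voom with sample weights and 0 with Ttr as covariate, 0 in 14-month mice only and 0 with the replicate number as a block, each with 3 genes at an unadjusted p below 0.05. It was 4 with length and GC trends removed, 4 without the shallowest CTRL and deepest DPAn-6 library and 2 with numbers 1 to 5 only, and it ran from 1 to 5 with 1 mouse left out, with 5 without CTRL replicate 3 and 1 without CTRL replicate 1 or 6 or DPAn-6 replicate 1, 2 or 4. Over all genes, 243 were called (64 higher, 179 lower). The count was 696 by DESeq2, 1267 by limma-voom with sample weights, 17 with Ttr as covariate, 9 in 14-month mice only, 69 with the replicate block, 148 with numbers 1 to 5 only and no block, 540 with length and GC trends removed (254 higher, 286 lower), 675 with the shallowest CTRL and the deepest DPAn-6 library left out together, and from 64 (without DPAn-6 replicate 3) to 953 (without CTRL replicate 3) with 1 mouse left out. The causes were not tested, except that the fits on subsets hold fewer mice. The other scalings, filters, age and Xist as covariates and limma-voom without weights kept 3 of the 8 genes called, the same 3 genes each time. No log2 fold change of the 8 genes turned negative in any of the 27 alternatives. Of the pairs, 5 passed in the values reported, 2 on library totals without TMM, 0 in 14-month mice, 0 with the trends removed and 1 without CTRL replicate 3.

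Over all genes tested, same-numbered CTRL and DPAn-6 libraries were not the most alike. Their deviations from the group means were correlated by 0.091, 0.016, -0.12, 0.22 and -0.067, and none of the 5 correlated best with its own number. Whether the numbers mark shared handling of the mice was not tested. With the replicate block the adjusted p (edgeR) was 0.0810 for Inhba, 0.125 for Nrn1 and 0.0586 for Sorcs3, at log2 fold changes of 0.76, 0.43 and 0.44. Counting error limits Inhba, Crem, Gadd45b and Gadd45g, which had at most 314 reads in any library.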
